A study of Homo sapiens with 8 samples.

Results

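The alpha- and beta-globin loci were described by the CTCF peaks in and around them in HT1080 cells, before and after treatment with the curaxin CBL0137. The peaks were chosen by place alone, as those with a centre in hg19 chr11:5000000-5500000, which holds HBB, HBD, HBG1, HBG2 and HBE1, or in chr16:60000-500000, which holds HBZ, HBA2 and HBA1. Of the 47470 peaks in the list of control cells, 27 met this rule, 10 of them in the beta-globin window and 17 in the alpha-globin window. Of the 29558 peaks in the list of treated cells, 20 did, 6 in the beta-globin and 14 in the alpha-globin window.

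HT1080 is an established human fibrosarcoma line, labelled as positive for the ras oncogene, and all libraries came from this single line. Control cells, for which the labels give no treatment, were compared with cells kept in 3 µM CBL0137 for 6 h, so that the comparison asks where CTCF was bound with and without the drug. Both conditions had 2 biological replicates of ChIP with an anti-CTCF antibody and 2 of input DNA, 8 libraries in all. The peak caller PePr took the replicates of a condition together, so each condition has 1 list, in which every peak carries its enrichment over input as a fold and a false discovery rate (FDR). The lists hold no value per replicate and no depth per library, so that no spread between replicates and no test over samples was computed here. The authors' direct comparison of the conditions was used for the positions of its sites alone. HT1080 cells are not of the erythroid lineage, and the transcription of the globin genes was not analysed here.

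Globin genes lie in clusters in the order of their use during development. In the beta cluster, HBE1 is the embryonic gene, HBG1 and HBG2 are the fetal genes, HBB is the main adult gene and HBD its minor adult companion. Upstream of HBE1 lies the locus control region, a row of enhancer elements that drives the cluster in erythroid cells. The insulator element HS5 closes it on its far side, and the element 3′HS1 lies behind HBB at the opposite end. In the alpha cluster, HBZ is the embryonic gene, HBA2 and HBA1 are the adult genes, and the enhancers lie in introns of the neighbouring gene NPRL3. CTCF binds HS5, 3′HS1 and sites around the alpha genes. It is a zinc-finger protein that can block enhancers and, with cohesin, anchor chromatin loops, most often between sites whose motifs point towards each other.

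The sequences under the peaks that bounded the genes are shown first, because the motif and its direction can be read from them. Each line gives 30 bases of the GRCh37 reference, read 5′ to 3′ on the strand of the motif, and the 12 capitals mark the core of the CTCF motif. The peak named as next beyond the place of HS5 is the next one of the treated list. In the control list, a weak peak at chr11:5391251-5391350, not shown here, lay before it.
Peak on the HBB side, place of 3′HS1, core at chr11:5226196-5226207, plus strand: ttctggacaCCACTAGGGGTCagaagtagt
Peak on the HBE1 side, place of HS5, core at chr11:5312667-5312678, minus strand: ctgttatgaCCACTAGAGGGAagaagatac
Next peak beyond the place of HS5, core at chr11:5402162-5402173, minus strand: ccaatgtagCCACCAGGGGGAgcattcagc
NPRL3 intron, peak nearest to HBZ, core at chr16:167930-167941, plus strand: caagttctgCCACCAGGGGGAgttggggcc
NPRL3 intron, next peak, core at chr16:157204-157215, plus strand: ctttaatatCCACTAGGTGGCgctgggttg
NPRL3 intron, farthest of the 3 peaks, core at chr16:147061-147072, minus strand: acagcatggCCACCAGGGGGCagcagaggc
HBQ1 promoter, core at chr16:230405-230416, minus strand: gtcccgcggCCTCCAGGGGGCgccgcgccg
Peak behind HBQ1, core at chr16:231574-231585, minus strand: cggctcgcgCCGGGAGGGGGCgctgttccc
Peak between HBQ1 and LUC7L, core at chr16:238856-238867, minus strand: ttctggcatCCAGTAGATGGCagggcactt
The motifs that face each other across the beta-globin genes thus lay on the plus strand on the HBB side and on the minus strand on the HBE1 side. Around the alpha-globin genes, the cores of the 2 nearest peaks in NPRL3 were on the plus strand, that of the third and strongest was on the minus strand, and all 3 on the other side were on the minus strand. The cores nearest to the genes on either side were therefore convergent in both loci. The core between HBQ1 and LUC7L and those at chr16:157204 and chr16:147061 had 0 mismatches to the consensus, the core behind HBQ1 had 2, and the others had 1.

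A control peak was called shared if any treated peak overlapped it by at least 1 bp, and lost otherwise. A treated peak that no control peak overlapped was called arisen. A lost peak was not in the treated list. No p-value above 1e-05 was found in either list, and the highest FDR of the treated list was 0.00221, so that weaker binding beyond these limits cannot be told apart from no binding. In the beta-globin window, 4 of 10 control peaks were lost, which is 40% (Wilson 95% interval 16.8% to 68.7%), and 6 were shared. In the alpha-globin window, 5 of 17 were lost, which is 29.4% (13.3% to 53.1%), and 12 were shared. Over the whole control list, 42.9% of the peaks were lost, a share within both intervals. When the control list was cut by fold to the number of treated peaks, 0 of the 10 alpha-globin peaks left were lost (upper limit 27.8%), and 2 of 7 beta-globin peaks. The 42.9% is not the background of these counts, because the lost share of all control peaks fell from 88.2% in the weakest decile by fold to 7.60% in the strongest. The lost share of all peaks after this cut is not given here. No treated peak arose in the beta-globin window (0 of 6, with an upper limit of 39.0%), and 2 of 14 arose in the alpha-globin window, which is 14.3% (4.01% to 39.9%), beside 8.07% of all treated peaks. The intervals cover counting error only, and neither a difference between the windows nor one from the whole list could be seen with so few peaks.

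The 5 beta-globin genes lay in a single stretch without a peak in either list, and the peaks at its ends had different fates. The peak on the HBB side, at chr11:5226051-5226350, lay between OR51V1, an olfactory receptor gene, and HBB, 22.1 kb from the HBB start and in the place of 3′HS1. It was 300 bp wide and had a fold enrichment of 34.7 over input in control cells, with an FDR of 9.12e-07. It was called at exactly the same position in treated cells, with a fold enrichment of 19.4 and an FDR of 5.22e-06. Because each list was set against its own input, strength is given by rank, as the percentile of a peak among the folds of its own list, which was 66.3 for this peak in control cells. The treated list is shorter and lacks many weak peaks, which lowers the percentile of a shared peak without any change in its order. Changes in rank were therefore taken among the 27107 shared control peaks and their treated partners alone, a measure chosen after seeing the data. There the percentile of this peak went from 49.5 to 26.0, and 19.7% of the shared peaks went down by as much or more. It overlapped no site that the authors' direct comparison of the conditions listed as higher in control cells.

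The peak on the HBE1 side, at chr11:5312501-5312850, lay 21.5 kb upstream of the HBE1 start, beyond the locus control region and in the place of HS5, and it was lost. No file used here marks HS5 or 3′HS1, and both names rest on the known order of the elements. By the annotation, the peak lay in an intron of ENSG00000239920, a long protein-coding gene model without a symbol that runs across the locus. In control cells its strength was close to that of the peak behind HBB, with a fold enrichment of 36.2, a width of 350 bp, an FDR of 5.72e-09 and the percentile 69.8. It overlapped a site listed as higher in control cells. Peaks of this strength were usually kept, since 26.9% of the control peaks in the same decile of the list by fold were lost, and 9.40% of all lost peaks had a fold as high. The next peak of the control list was also lost. It lay at chr11:5391251-5391350, 100.1 kb from the HBE1 start, was narrow (100 bp) and weak (fold 14.5, FDR 0.00105, percentile 12.05), and overlapped no differential site.

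With both lost, the first peak of treated cells on this side was the one at chr11:5402001-5402350, 111.0 kb from the HBE1 start. It had a fold enrichment of 34.0 and an FDR of 2.27e-12 there. In control cells it spanned chr11:5401951-5402350, with a fold of 30.5 and an FDR of 3.89e-10. Among the shared peaks its percentile was 36.0 in control and 61.3 in treated cells. Its core was on the minus strand, as that of the lost peak was, so the cores at the ends of the longer stretch were convergent as well.

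**Figure D1:**
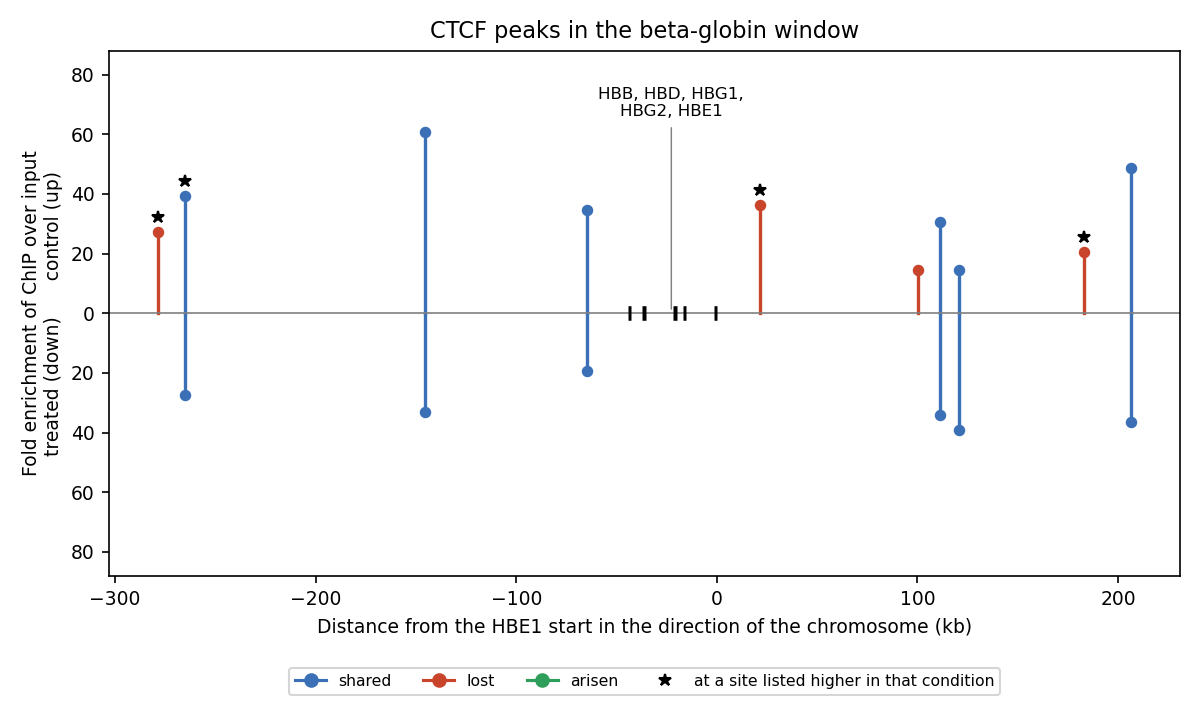
Fold enrichment of ChIP over input of each CTCF peak of the beta-globin window, with control peaks drawn upwards and treated peaks downwards, against the distance from the HBE1 start in kb. Ticks on the zero line mark the 5 genes, colours mark the fate, stars mark peaks at sites listed as higher in that condition, and the stem at 21.5 kb, with a fold of 36.2, has no counterpart below the line.

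The farther peaks of the beta-globin window lay among olfactory receptor genes, which account for 15 of its 21 protein-coding gene starts. On the HBB side, the peak at chr11:5012351-5012600 in an intron of MMP26, a matrix metalloproteinase gene, was lost, with a fold enrichment of 27.1 and the percentile 45.5. The peak at chr11:5025701-5026000 in an untranslated exon of OR51L1 was shared, with a fold of 39.3 in control and 27.3 in treated cells (percentiles 63.6 and 45.7 among the shared peaks). Both overlapped a site listed as higher in control cells. The strongest control peak of the window, at chr11:5145301-5145650 in an intron of the long noncoding RNA ENSG00000290651, was shared as well. Its fold was 60.7 in control and 33.0 in treated cells, and its percentile among the shared peaks 95.6 and 59.0.

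On the HBE1 side, the peak at chr11:5411501-5411750 in an untranslated exon of OR51M1 went the other way. Its fold was 14.4 in control and 39.1 in treated cells, and its percentile among the shared peaks went from 2.66 to 71.3, a rise that 0.782% of them matched or exceeded. It overlapped no differential site of either direction. The peak at chr11:5474001-5474250 in an intron of OR51I2, with a fold of 20.5 and the percentile 27.0, was lost and overlapped a site listed as higher in control cells. The last one, at chr11:5497451-5497850, was shared, with folds of 48.7 and 36.5 and percentiles of 84.2 and 66.5 among the shared peaks.

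Seen from the genes, the stretch without a CTCF peak around the beta-globin genes measured 86.5 kb between peak centres in control cells and 176.0 kb in treated cells, a ratio of 2.03. For HBE1, the distance to the nearest peak on the side of the locus control region went from 21.5 kb to 111.0 kb. For HBG2 it went from 36.7 kb to 126.2 kb, and for HBG1 from 41.6 kb to 131.1 kb. The adult genes lay farther away, with 57.0 kb against 146.5 kb for HBD and 64.4 kb against 153.9 kb for HBB. The distance on the other side was the same in both lists, from 22.1 kb for HBB to 65.0 kb for HBE1.

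Around the alpha-globin genes, the stretch measured 62.5 kb in both lists, because the nearest peak on either side was shared. In control cells, HBZ lay 34.7 kb from the peak in NPRL3 and 27.7 kb from the one at the HBQ1 promoter. HBA2 lay 54.95 kb and 7.5 kb from them, and HBA1 58.8 kb and 3.70 kb. HBA2 and HBA1 thus lay closer to a CTCF peak than any of the beta-globin genes, for which the shortest distance was the 21.5 kb of HBE1.

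A lost nearest peak on at least 1 side was found for 5 of the 8 globin genes, all in the beta cluster, where they share the same peak and count as a single event. When the overlap had to exceed 50% of the longer peak, which is the rule the study's methods give for a remaining peak, the number was 8 of 8, because the HBQ1 promoter peak overlaps its partner by exactly 50%. By the rule of any overlap, 59.8% of 19742 protein-coding genes had a lost nearest peak on at least 1 side. No share over all genes is given here for the stricter rule, so that the 8 of 8 has no background. The median stretch around a gene start was 61.8 kb in control cells and 93.9 kb in treated cells, and the median ratio of treated to control was 1.09. In control cells 63.7% of genes lay in a shorter stretch than the beta-globin genes, and in treated cells 70.4% did. For the alpha-globin genes the shares were 50.3% and 36.3%. The length of neither stretch was thus unusual among genes, in either condition.

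**Figure D2:**
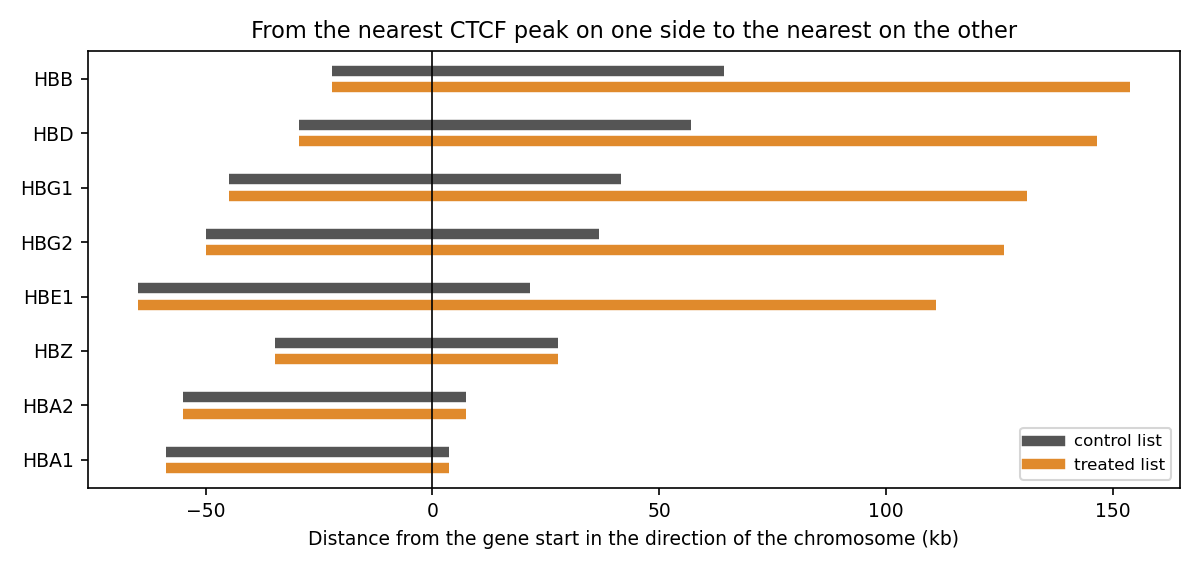
Stretch from the nearest CTCF peak on one side of each globin gene to the nearest on the other, in kb from the gene start, for the control list (grey) and the treated list (orange). The bars of the 5 beta-globin genes are longer in treated cells on the right side only, 176.0 kb against 86.5 kb, and those of the 3 alpha-globin genes are 62.5 kb in both.

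In the alpha-globin locus, the 3 peaks nearest to HBZ on the enhancer side were strong and were kept. By fold they lay in deciles 9 and 10 of the control list, where 13.5% and 7.60% of all control peaks were lost. All 3 lay in introns of NPRL3, which encodes a subunit of a regulator of mTORC1 and houses the alpha-globin enhancers. The farthest, at chr16:146751-147250, 55.6 kb from the HBZ start, had a fold enrichment of 68.6 and an FDR of 7.18e-14 in control cells. In treated cells it spanned chr16:146801-147300, with a fold of 48.5 and an FDR of 5.30e-16, and its percentile among the shared peaks went from 98.4 to 85.6. The peak at chr16:157001-157350 had a fold of 58.8 and an FDR of 9.17e-09. Its treated partner at chr16:157001-157400 had a fold of 55.9 and an FDR of 1.44e-08 (percentiles 94.5 and 92.7 among the shared peaks). The peak nearest to HBZ, at chr16:167701-168150, had a fold of 41.5 and an FDR of 1.62e-09, and its partner at chr16:167751-168150 a fold of 43.1 and an FDR of 4.31e-10, at percentiles of 69.4 and 78.4 among the shared peaks. None of these 3 overlapped a differential site.

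Behind HBA1, a pair of peaks stood close to HBQ1, which encodes the theta-globin chain, and both were placed higher in the list of treated cells. The peak at the HBQ1 promoter, at chr16:230301-230450, lay 83 bp from the HBQ1 start and 3.70 kb from the HBA1 start. It was weak in control cells, with a fold enrichment of 20.5, an FDR of 3.38e-04 and the percentile 26.8. In treated cells it was 300 bp wide instead of 150 bp, at chr16:230251-230550, with a fold of 57.6 and an FDR of 4.04e-08. Among the shared peaks its percentile went from 9.84 to 93.8, and 0.0627% of them went up by as much. The second peak, at chr16:231401-231800, lay 1142 bp behind the HBQ1 start. It had a fold of 53.1 and an FDR of 5.75e-09 in control cells, and at chr16:231351-231800 a fold of 75.5 and an FDR of 2.60e-10 in treated cells, and its percentile among the shared peaks went from 89.9 to 99.1. Both overlapped a site listed as higher in treated cells, a kind of site that 7.25% of all treated peaks overlapped.

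Farther out on this side, the next peaks were weak and were lost. The one between HBQ1 and LUC7L, at chr16:238751-238950, 12.2 kb from the HBA1 start, had a fold enrichment of 16.3, an FDR of 9.19e-07 and the percentile 16.2. It overlapped a site listed as higher in control cells, although its core matched the consensus exactly. The one at chr16:258501-258600 in an intron of LUC7L, a splicing factor gene, was among the weakest of the whole list, with a fold of 7.31, an FDR of 0.00128 and the percentile 0.463. The peak at chr16:284901-285200, 230 bp from the FAM234A start, was shared at the same position with a fold of 38.3 (FDR 1.04e-06) in control and 17.7 (FDR 7.98e-05) in treated cells. Its percentile among the shared peaks went from 60.7 to 21.4, the largest step down in either window, and it overlapped a site listed as higher in control cells.

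**Figure D3:**
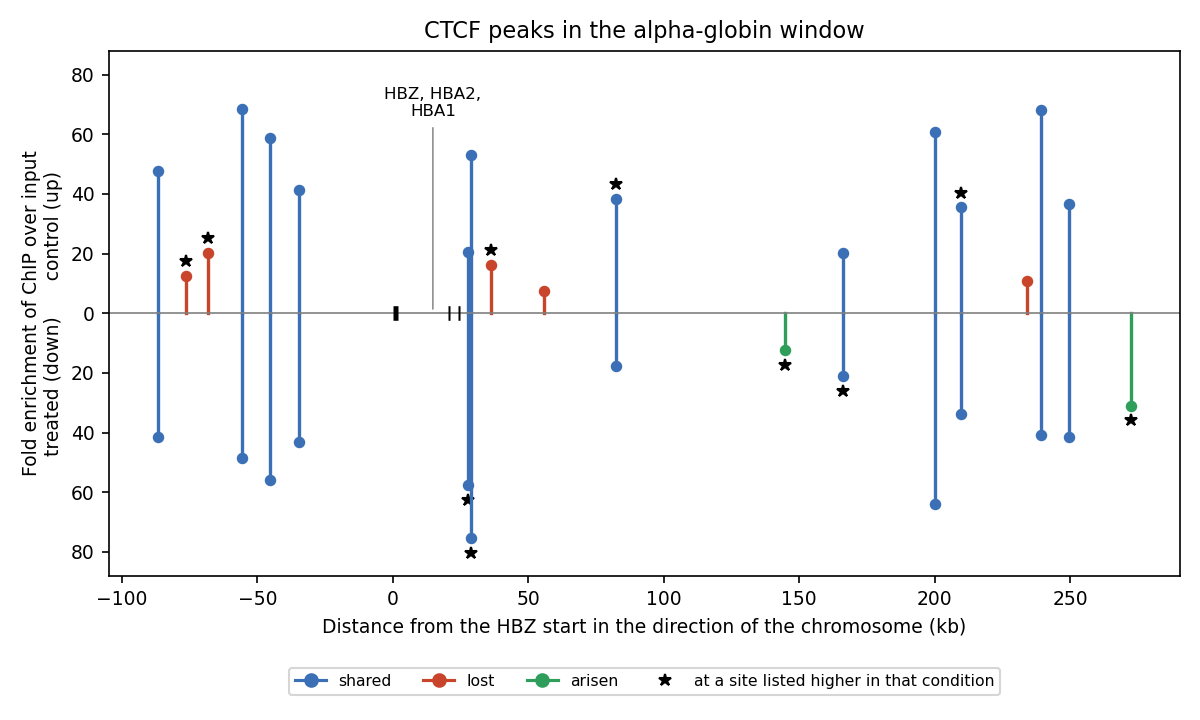
Fold enrichment of ChIP over input of each CTCF peak of the alpha-globin window, with control peaks drawn upwards and treated peaks downwards, against the distance from the HBZ start in kb. Ticks on the zero line mark the 3 genes, colours mark the fate, stars mark peaks at sites listed as higher in that condition, and the pair of stems just behind the genes, at HBQ1, reaches folds of 57.6 and 75.5 in treated cells.

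On the far side of NPRL3, 2 weak peaks near MPG, a DNA repair glycosylase gene, were lost. The one at chr16:126101-126400 between the starts of RHBDF1 and MPG had a fold enrichment of 12.5, an FDR of 1.69e-06 and the percentile 7.81, and the one at chr16:134301-134450 in an intron of MPG a fold of 20.1, an FDR of 3.18e-05 and the percentile 25.9. Both overlapped a site listed as higher in control cells. The peak at chr16:115651-116050 in an intron of RHBDF1 was shared, with a fold of 47.7 (FDR 4.82e-12) in control and 41.5 (FDR 6.67e-14) in treated cells and percentiles of 82.6 and 75.8 among the shared peaks.

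The remaining peaks of the alpha-globin window lay more than 100 kb from HBA1. Those at the AXIN1 start (23 bp from it), between AXIN1 and MRPL28, between PGAP6 and NME4, at the DECR2 start (215 bp from it) and in an intron of AXIN1 were shared, with folds between 20.2 and 68.3 in control cells. A second peak between PGAP6 and NME4, with a fold of 10.9, was lost. Both arisen peaks of treated cells were here, at chr16:347201-347350 in an intron of AXIN1, with a fold of 12.3, and at chr16:475001-475350, 474 bp from the RAB11FIP3 start, with a fold of 31.0. Both overlapped a site listed as higher in treated cells. The AXIN1 site was ttacagatgCCAGGAGGGGGCctcgcagac, with the 12 bases of the core in capitals at chr16:347298-347309 on the minus strand.

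Lost peaks had the lower median strength in both windows. In the alpha-globin window, the 5 lost peaks had folds between 7.31 and 20.1 and the 12 shared peaks between 20.2 and 68.6, without overlap, and the medians were 12.5 and 44.6. In the beta-globin window, the 4 lost peaks ranged from 14.5 to 36.2 and the 6 shared from 14.4 to 60.7, with medians of 23.8 and 37.01, so that the groups overlapped. Over the whole list the groups overlapped, with folds from 1.47 to 78.6 for lost and from 1.88 to 119.7 for shared peaks. The medians there were 20.6 for lost and 34.9 for shared peaks, and the lost share went down from 88.2% in the weakest decile to 7.60% in the strongest. Giving each peak the lost share of its decile, 3.85 of the 10 beta-globin peaks would be lost and 6.69 of the 17 alpha-globin peaks, beside the 4 and 5 found. The counts of lost peaks were thus near those of peaks of like strength elsewhere, and the HS5 peak was the lost peak with the highest fold in either window.

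**Figure D4:**
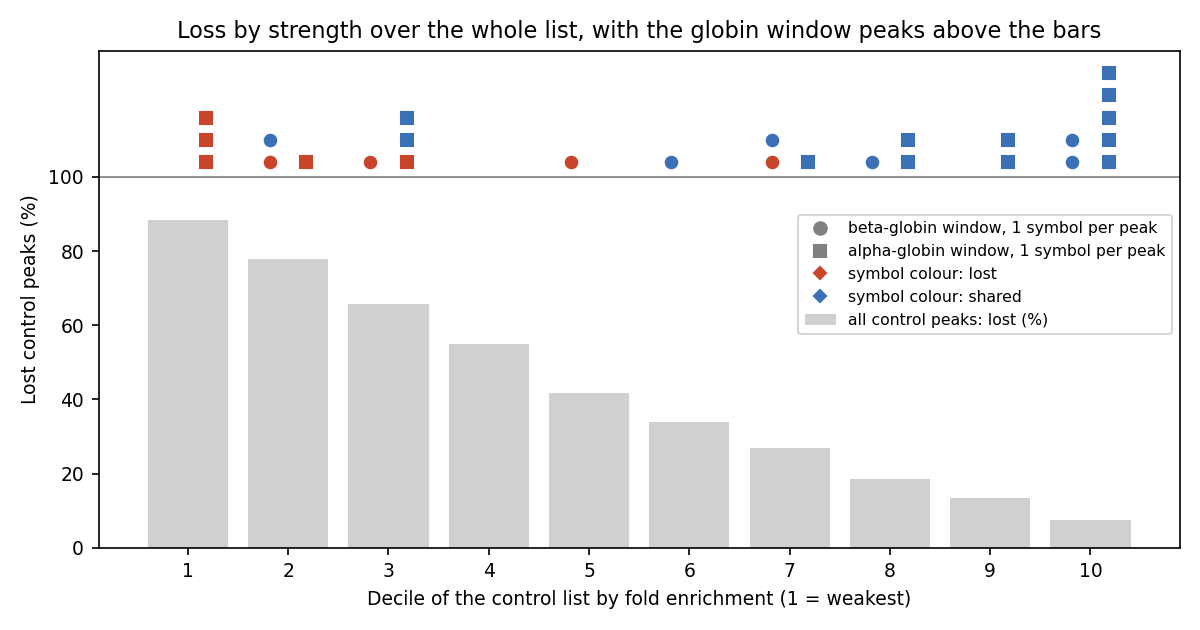
Share of all control peaks that were lost (bars, percent) in each decile of the control list by fold, from the weakest (1) to the strongest (10), with 1 symbol above the bars for each control peak of the beta-globin (circles) and alpha-globin (squares) windows. Lost peaks (red) of the alpha-globin window lie in the 3 weakest deciles, whereas a lost beta-globin peak, the one in the place of HS5, lies in decile 7.

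The order of the shared peaks changed in both directions. Ranked among the shared peaks alone, 2 of 6 in the beta-globin window had a higher percentile in treated cells and 4 a lower one, with a median change of -17.8 percentile points. In the alpha-globin window 7 of 12 were higher and 5 lower, with a median change of 5.02 points. Over all 27107 shared peaks, 13885 were higher and 13220 lower, with a median change of 0.69 points. Ranked within the whole lists, which differ in length and were the planned measure, the medians were -24.5 points (beta), -1.92 points (alpha) and -9.21 points (all). The direction in the alpha-globin window thus depends on this choice. Shared peaks of the beta-globin window were narrower in treated cells in 4 cases, wider in 1 and of the same width in 1, whereas in the alpha-globin window 3 were narrower, 4 wider and 5 the same. Over the whole list 16916 were narrower, 4073 wider and 6118 the same.

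**Figure D5:**
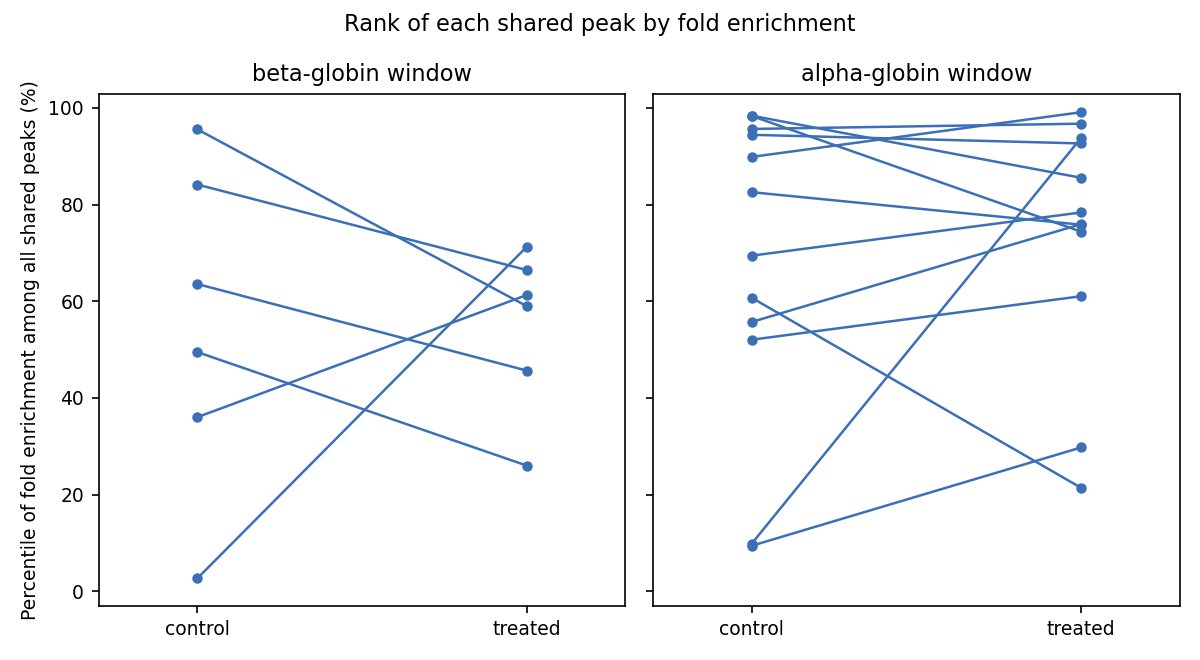
Percentile of each shared peak by fold enrichment among all shared peaks, in control and treated cells, for the beta-globin (left) and alpha-globin (right) windows. Each line is 1 peak, and the steepest rises are those at OR51M1 (2.66 to 71.3) and at the HBQ1 promoter (9.84 to 93.8).

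The positions of the differential sites give a second view of the same libraries. Of the control peaks, 4 of 10 in the beta-globin window (3 lost and 1 shared) and 5 of 17 in the alpha-globin window (3 lost and 2 shared) overlapped a site listed as higher in control cells, beside 51.2% of all control peaks. No treated peak of the beta-globin window overlapped a site listed as higher in treated cells (0 of 6). In the alpha-globin window 5 of 14 did, which were both arisen peaks, the pair at HBQ1 and the peak in the AXIN1 intron at chr16:368651-369000, beside the 7.25% over all treated peaks.

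The windows also differed in their sequence and in how densely they were bound. The beta-globin window had a GC content of 37.6% and 20 control peaks per Mb, and the alpha-globin window 54.3% and 38.6 peaks per Mb. The consensus core was searched on both strands over 400 bp around each peak centre with at most 1 mismatch. It was found in 6 of 10 control peaks of the beta-globin window (5 of 6 shared and 1 of 4 lost) and in 7 of 17 of the alpha-globin window (5 of 12 shared and 2 of 5 lost). Over all control peaks 49.0% had such a match (62.2% of shared and 31.5% of lost peaks), and 2.81% of windows 10 kb away did. With at most 2 mismatches the numbers were 9 (beta) and 15 (alpha), and with a weight matrix 8 and 11. The matrix, with a cutoff set for about 5% of windows 10 kb away, matched 70.6% of all control peaks. For at most 2 mismatches no share over all peaks is given here. A match describes the letters alone, and a strong peak can lack one, as the peak at the AXIN1 start, with a fold of 60.9 and no match, shows.

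No peak of either list lay within any of the 8 globin genes. For at least 5 of them the reach of the data was limited, because the authors removed reads without a unique position and neighbouring globin genes are near copies. Of the 75-base stretches in the reference, the length of a read, 46.2% in HBG1, 46.0% in HBG2, 49.2% in HBZ, 58.4% in HBA2 and 57.9% in HBA1 had an exact second copy in the same window. HBB, HBD and HBE1 had no such stretch. Copies with mismatches or outside the window were not counted, so that full reach in these genes was not shown. No peak of the windows held a stretch with an exact copy either. Reads were filtered before the peaks were called, so this says little about the reach at other places. The shares over the whole windows were 1.02% (beta) and 1.79% (alpha).

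Other genes of the globin family and known regulators of globin genes lie elsewhere in the genome, and 12 of them were examined with 10 kb on each side. They held 13 control peaks at 9 genes, of which 3 were lost, which is 23.1% (Wilson 95% interval 8.18% to 50.3%), an interval that holds the 42.9% of all control peaks. The 3 relatives MB, CYGB and NGB, which encode myoglobin, cytoglobin and neuroglobin, kept all their peaks, with folds of 35.1 at MB, 33.9, 24.9 and 31.8 at CYGB and 9.71 at NGB. At MYB, a transcription factor gene linked to fetal globin levels, the only peak was lost, with a fold of 29.9. Its neighbour HBS1L kept a peak with a fold of 45.6 and lost one with a fold of 11.5. LDB1, whose product links the locus control region to globin promoters in erythroid cells, lost a peak, kept another and had an arisen one. The peaks at KLF1, LMO2 and NFE2, which encode erythroid regulators, were shared, and no control peak lay at GATA1, TAL1 or ZBTB7A.

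The edges of the windows were fixed coordinates set by the rule, and the windows were chosen with earlier results of these data known. On chromosome 11, the nearest control peaks outside lay at 4913551 to 4913800 (fold 19.8) and at 5528501 to 5528700 (fold 29.2), both lost, whereas the nearest inside were the MMP26 peak and the one at chr11:5497451. On chromosome 16, no peak lay between the window and the chromosome end, the last control peak inside was the one at DECR2, and the first outside, at 537551 to 538050, was shared with a fold of 36.4.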

How the data were processed

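The starting point was 4 peak lists deposited by the authors, without column headings, whose columns follow broadPeak order. Per the paper's methods and the submitters' processing notes, the authors aligned reads with Bowtie2 2.2.3 to hg19, dropped duplicates and reads that had no unique position, and ran PePr with windows of 100 bp and a p-value cutoff of 0.05. The notes also name SAMtools 1.5 and deepTools 2.0. The deposited fold enrichment is a ratio of ChIP over input, from both replicates of a condition together. The p-value and FDR of each peak were deposited by the authors as well, and no p-value above 1e-05 was found in either list, so that these are stricter than the stated cutoff. In 2 further lists the authors compared the conditions directly. They hold a fold and a p-value of one condition over the other, which were not used. Their positions were. The labels describe paired-end and the methods single-end sequencing of 75 bp. Depth per library cannot be read from the lists. Libraries were assigned to conditions by their labels, with a misspelt form read as control.

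Peak positions were set against GRCh37 and the Ensembl canonical transcripts of GENCODE v44lift37, and 0 peaks lay beyond a chromosome end. The windows, members and gene lists were chosen with earlier results of these data known. Peaks within 100 kb of a globin gene start and the nearest peak on each side of a globin gene were described in full, the others by neighbour and range. Percentiles were taken within a list, or among shared peaks only for changes in rank, and folds were never divided between lists. Wilson 95% intervals cover counting error only. The consensus core of 12 bases was searched over 400 bp, and a weight matrix of 20 positions, built from matches on other chromosomes, was an alternative. Sequences were read with samtools 1.23.1 and pysam 0.24.0, values computed in Python 3.11.15 with pandas 2.3.3, numpy 2.4.6 and scipy 1.17.1, and figures drawn with matplotlib 3.10.9. Overlap and motif search were tested on simulated data. Stricter FDR and fold limits, other overlap rules, a narrower window and other motif searches were tried.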

Additional observations from a re-analysis of the deposited data

How the results depend on the processing

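Of 62 values recomputed under 14 other settings, 50 stayed within bounds, which were the Wilson interval for a share and 1.5 times for a count, 11 moved and 1 changed sign. These bounds are wide, and the beta-globin lost share went from 40% to 60% within them when only treated peaks of an FDR of at most 1e-05 counted. The alpha-globin share went from 29.4% to 35.3% under this setting. Leaving out treated peaks can only raise a lost share, and the share over all peaks is not given here for it. Windows of the globin genes with 100 kb on each side held 2 control and 1 treated peak in the beta-globin locus, with 1 control peak at a site higher in control cells, and 11 control and 7 treated peaks, 0 of them arisen, in the alpha-globin locus. When the control list was cut by fold to the number of treated peaks, the lost share was 0% (0 of 10) in the alpha-globin window and 28.6% in the beta-globin window. The lost share of all peaks after this cut is not given here. With at most 2 mismatches 15 alpha-globin and 9 beta-globin peaks had a consensus match. The weight matrix matched 11 alpha-globin peaks, beside 70.6% of all control peaks. When the overlap had to exceed 50% of the longer peak, 8 globin genes had a lost nearest peak, because the HBQ1 promoter peak overlaps its partner by exactly 50%. With at least 50%, the number was 5. No share over all genes is given here for either rule. The median rank change was -17.8 points (beta) and 5.02 points (alpha) among the shared peaks only. Both settings were chosen after seeing the data. Under all overlap rules, 10 of 10 beta-globin and 16 of 17 alpha-globin peaks kept their fate.

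No paired analysis was possible because the lists used here pool both replicates, and for the same reason leaving out replicate 1 or replicate 2 and a replicate block were not run. This is a limit of the lists and not of the design, and signal per replicate was not analysed here. Whether a lost or arisen peak appears in both replicates is thus not known, and reads, Hi-C contacts and expression were not analysed here. Few peaks per window make every share imprecise.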
